A study of Homo sapiens with 12 samples.

Results

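The MEF2 family was examined at its 4 genes, MEF2A, MEF2B, MEF2C and MEF2D, by taking every called peak of open chromatin whose summit lay in the gene body or within 50 kb on either side of it (hg38). The 4 loci held 789 of the 1200433 peaks of 12 libraries, with 147 at MEF2A, 176 at MEF2B, 313 at MEF2C and 153 at MEF2D. Overlapping peaks of the 12 libraries merged into 177 regions, 33 at MEF2A, 38 at MEF2B, 77 at MEF2C and 29 at MEF2D. The assay was bulk ATAC-seq, which uses the Tn5 transposase to tag DNA that is accessible, and it was run on 3 human acute myeloid leukaemia cell lines. MLL1 (KMT2A) is rearranged in MOLM13 and in MV4-11, while OCI-AML3 has mutant NPM1. In each line, cells given 500 nM of VTP50469 for 16 h, a Menin inhibitor that blocks the binding of Menin to MLL1, were set against control cells of the same line, with 2 libraries per group and 6 groups in all. Each genotype is represented by established lines only, so that a difference between lines cannot be told apart from any other difference between those lines, and nothing in the labels says that libraries of a group came from separate cultures.

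MEF2 proteins are MADS-box transcription factors that bind an AT-rich site as dimers. Without a signal they recruit class IIa histone deacetylases (HDACs) and repress, and when kinases drive these HDACs out of the nucleus they activate their targets with EP300 and CREBBP. MEF2C works in lymphoid and myeloid progenitors and is a known target of MLL1 fusion proteins, MEF2D is a fusion partner in acute lymphoblastic leukaemia, MEF2B is known for its mutations in germinal-centre lymphoma, and MEF2A is broadly expressed and was described first in muscle.

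The libraries held between 68670 and 145364 used peaks, and the median number of reads over a peak summit was between 9 and 13. Peak numbers differed between the lines, so the peaks of a locus are given both as counts and as a rate per 10000 peaks of the library. A region without a peak in a library is one that was not called there, which a shallow library cannot tell from a closed one. Of the marker genes with an annotated start site, the 7 myeloid ones had a peak within 1 kb of it in a median of 8 of 12 libraries, the 4 T cell ones in 2.5 (CD8A in 12), the 3 B cell ones in 8 and the 3 erythroid ones in 0. The p-values of limma and of permutation tests measure only the spread between these libraries, which may be technical.

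The start sites of the 4 genes differed in how many libraries had open chromatin over them, and 4 windows of 300 bases around them are shown because the results return to these sites. MEF2A has its body at chr15:99565417-99716488 on the plus strand, MEF2B at chr19:19145567-19170263, MEF2C at chr5:88717117-88904105 and MEF2D at chr1:156463727-156500775, all 3 on the minus strand. The promoter sequences used here (RefSeq, GRCh38.p14) held 12 windows at their starts, from 250 bases before to 50 after each, and none at the body start of MEF2D, 156500775, where a region was called in all 12 libraries. Of these windows, those at 99565417 and 99565984 (MEF2A) and at 88827192 and 88883184 (MEF2C) overlapped a region called in all 12 libraries, and that at 19170263 (MEF2B) overlapped 1 called in 7. The other 7 windows overlapped none. Both strands were searched for 7 motifs, and capitals mark the matching letters. Besides the MEF2 site these were GGAAGT, bound by ETS factors such as SPI1. The site of RUNX factors was read as TGTGGT, and that of the AP-1 dimer as TGANTCA. For MYC and its partners the E-box with the letters CACGTG was used. The GATA factors were given as AGATAA, while the SP and KLF zinc finger proteins were given as GGGCGG.
MEF2A, chr15:99565734-99566033, plus strand: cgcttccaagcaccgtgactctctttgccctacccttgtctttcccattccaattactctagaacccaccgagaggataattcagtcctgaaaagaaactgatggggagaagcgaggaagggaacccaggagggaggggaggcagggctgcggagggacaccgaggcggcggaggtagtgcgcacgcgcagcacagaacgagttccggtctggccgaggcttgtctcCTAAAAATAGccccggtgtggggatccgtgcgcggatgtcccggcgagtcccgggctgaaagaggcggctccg
MEF2B, chr19:19170214-19170513, minus strand: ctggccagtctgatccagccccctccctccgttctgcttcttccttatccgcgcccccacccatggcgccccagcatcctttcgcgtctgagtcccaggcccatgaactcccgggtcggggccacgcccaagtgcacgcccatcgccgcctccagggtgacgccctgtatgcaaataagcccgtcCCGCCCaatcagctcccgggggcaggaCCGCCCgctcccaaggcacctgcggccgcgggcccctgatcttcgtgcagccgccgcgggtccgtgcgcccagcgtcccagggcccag
MEF2C, chr5:88827143-88827442, minus strand: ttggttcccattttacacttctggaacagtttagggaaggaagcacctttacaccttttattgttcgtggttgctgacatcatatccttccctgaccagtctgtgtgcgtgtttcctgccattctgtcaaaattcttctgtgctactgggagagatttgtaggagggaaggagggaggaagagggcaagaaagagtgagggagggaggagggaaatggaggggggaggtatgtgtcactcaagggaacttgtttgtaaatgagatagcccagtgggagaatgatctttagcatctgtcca
MEF2C, chr5:88785462-88785761, minus strand: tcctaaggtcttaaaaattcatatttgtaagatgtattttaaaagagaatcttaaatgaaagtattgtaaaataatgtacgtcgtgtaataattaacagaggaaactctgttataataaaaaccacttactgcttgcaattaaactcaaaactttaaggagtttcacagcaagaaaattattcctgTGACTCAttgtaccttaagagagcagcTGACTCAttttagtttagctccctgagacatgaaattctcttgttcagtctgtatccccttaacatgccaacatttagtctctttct
The MEF2A window held 1 match to the MEF2 site, CTAAAAATAG, starting 23 bases before the start at 99565984, and 3% of 34789 promoter windows of this length held such a match. A second MEF2 family window, that of MEF2C at 88824344, held another match, and no region overlapped it. The MEF2B window held 2 matches to GGGCGG, which 44.9% of all windows held. The MEF2C window at 88827192 held no match to any of the 7 motifs. The MEF2C window at 88785511 held 2 matches to TGANTCA, 64 and 37 bases before the start, against 7.69% of all windows with at least 1. A match is a description of the letters and was not tested for binding.

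Many MEF2 regions were weak and called once, and a minority was open everywhere. In bulk cells, openness in fewer cells and less openness per cell cannot be told apart. Of the 177 regions, 20 were called in all 12 libraries (11.3%, against 6.97% of all 334907 regions) and 86 in only 1 library (48.6%, against 55.3%). Those in all 12 libraries had a median length of 763 bp and a median fold of 8.23, where the fold is the enrichment of reads at a peak's summit over nearby background. Regions in 1 library had a median length of 104.5 bp and a median fold of 3.95. MEF2A had the lowest mean density of peaks in each line, and the order of the other loci changed between lines. In MOLM13 there were 12.4 ± 1.04 peaks per 100 kb at MEF2B, 10.5 ± 0.285 at MEF2C, 9.49 ± 0.596 at MEF2D and 4.18 ± 0.514 at MEF2A (mean ± SD, n = 4 libraries, treated and control). In MV4-11 the means were 16.0 ± 1.46 at MEF2B, 11.7 ± 1.88 at MEF2D, 10.1 ± 2.09 at MEF2C and 5.87 ± 1.19 at MEF2A. In OCI-AML3 they were 6.82 ± 1.91 at MEF2B, 6.75 ± 0.699 at MEF2D and 6.71 ± 1.25 at MEF2C, which lay within their SDs of each other, and 4.58 ± 0.690 at MEF2A. By place, 10 of the 177 regions lay within 1 kb of a MEF2 start site, 12 within 1 kb of the start of another gene, 81 in a MEF2 body and 74 in a flank. Exon annotation on this build was not used here, so body regions are not split into exons and introns.

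**Figure D1:**
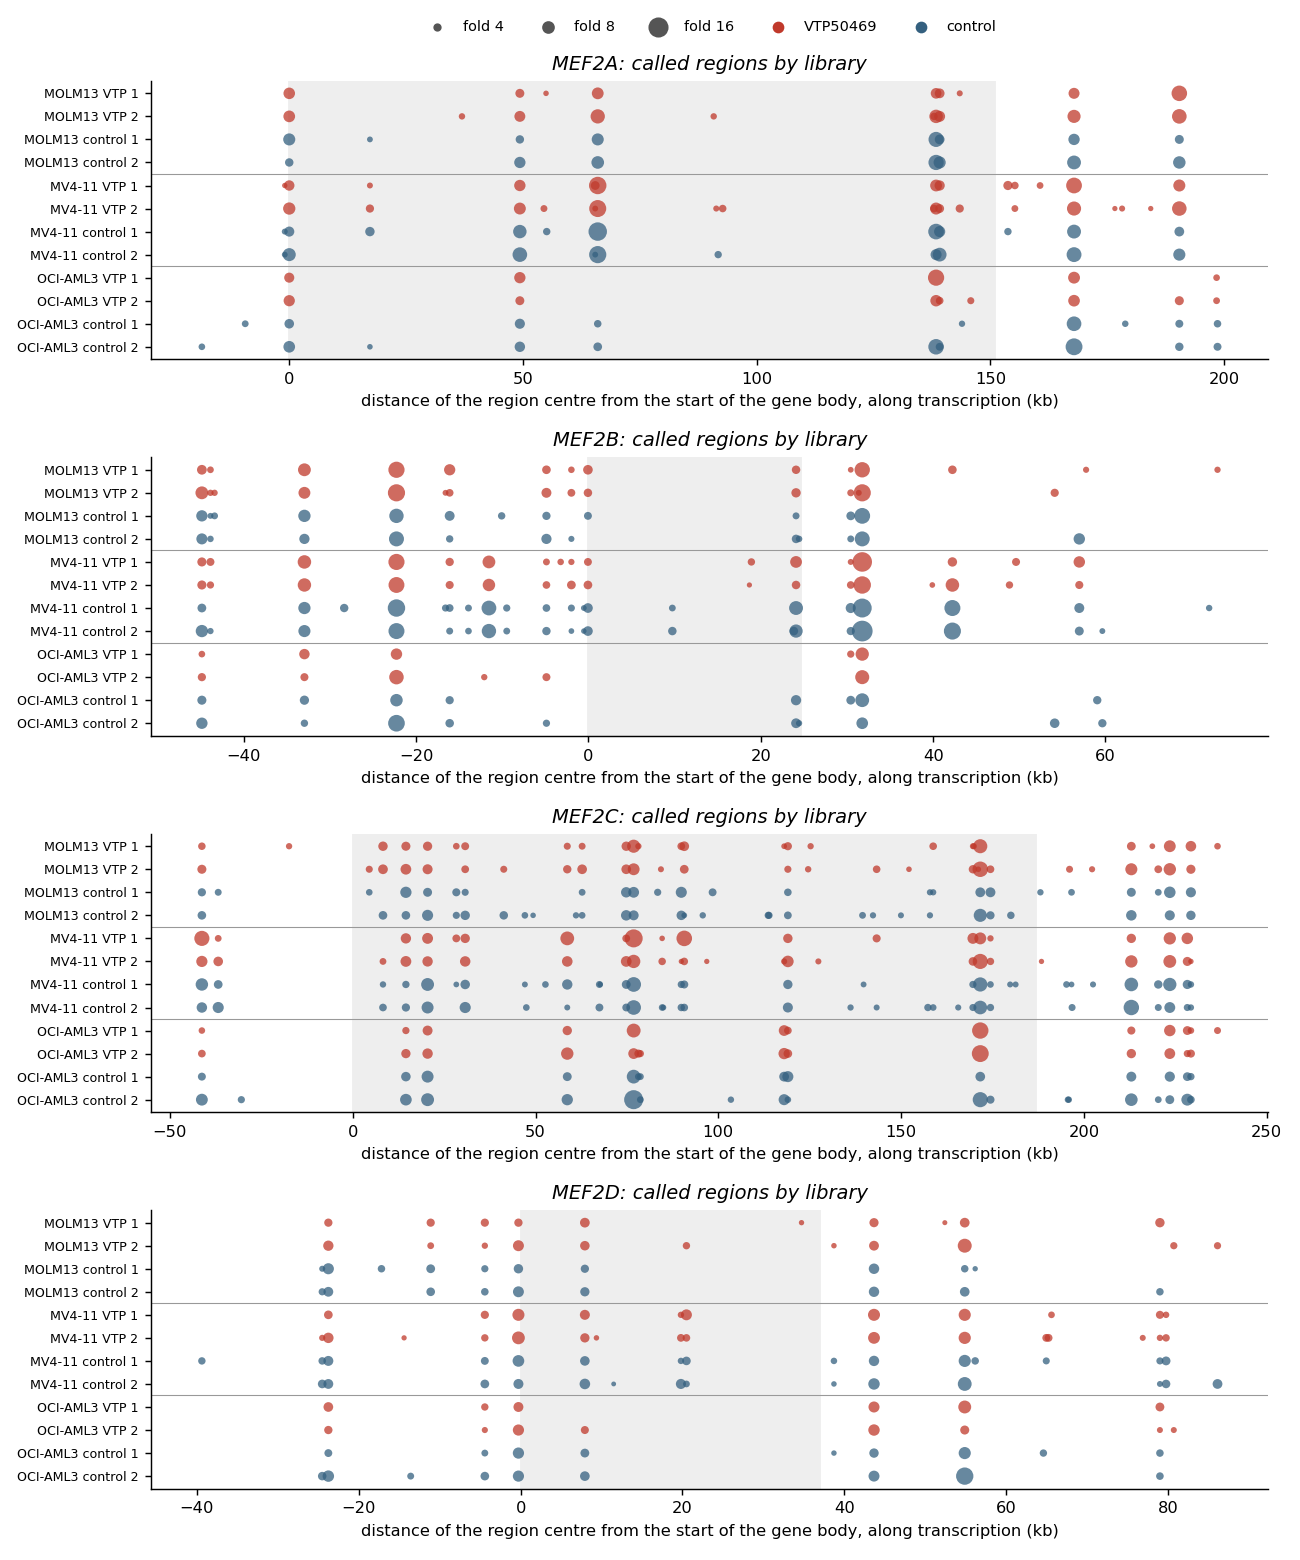
Called regions of the 4 MEF2 loci, with 1 row per library (VTP50469 above control in each line) and the distance in kb of the region centre from the start of the gene body along the direction of transcription on the x axis. The area of a point grows with the fold, grey marks the gene body, and an empty place is a region not called in that library. The columns of points that run through all 12 rows are the 20 regions called everywhere.

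The first question was whether VTP50469 changed the openness of the MEF2 loci. MEF2C, the member known as an MLL1 fusion target, was the only one whose peak rate was lower in both treated libraries than in both controls in all 3 lines, and no member passed the test across all loci. In MOLM13, MEF2C had 30 and 31 peaks in treated libraries against 30 and 29 in controls, or 3.14 and 3.01 against 3.78 and 3.15 per 10000 peaks. The counts there were alike, and the lower rate stands beside larger peak lists in the treated libraries (95561 and 103034 peaks, against 79373 and 92144 in controls). In MV4-11, MEF2C had 22 and 26 peaks in treated libraries against 34 and 34 in controls, or 1.90 and 1.79 against 2.71 and 2.57 per 10000. In OCI-AML3, MEF2C had 16 and 17 peaks in treated libraries against 20 and 24 in controls, or 2.08 and 2.48 against 2.84 and 2.54 per 10000. Both treated libraries of MV4-11 and of OCI-AML3 were thus below both controls in count as well as in rate. The log2 difference, VTP50469 minus control, was −0.17 ± 0.18 for MOLM13, −0.51 ± 0.18 for MV4-11 and −0.23 ± 0.18 for OCI-AML3 (limma estimate ± SE, 2 libraries against 2), with a mean over the lines of −0.30 ± 0.10. The unadjusted p of that mean was 0.00505 and its Benjamini-Hochberg adjusted p over 15249 protein-coding loci was 0.592 (limma). An exact permutation test of treatment labels within lines (two-sided, 216 splits) gave p = 0.00926, the smallest that design allows. That p follows from the ordering in all 3 lines already described, so it is not further support. Of all loci, 0.715% were below in all 3 lines, and 0.708% were lower at that smallest p. Taken alone, 25.6% of loci were below in MOLM13, 22.6% below in MV4-11 and 13.4% below in OCI-AML3. The limma test called 0.00656% of all loci for the mean over lines, 0.0393% for OCI-AML3 and 0% for the other two, and 4.42% were lower at an unadjusted p under 0.05. MEF2C is a locus already looked at in these data, so its place here is not independent support.

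In counts, weaker MEF2C peaks were fewer in treated than in control cells of MV4-11 and OCI-AML3, and the stronger ones differed less. Stronger peaks, taken as those whose −log10 q reached 5, numbered 15 and 18 in treated against 16 and 14 in control MOLM13, 17 and 15 in treated against 17 and 18 in control MV4-11, and 9 and 13 in treated against 12 and 14 in control OCI-AML3. Treated and control counts of these stronger peaks overlapped in MOLM13 and OCI-AML3 and met at 17 in MV4-11. They summed to 33 in treated against 30 in control MOLM13, 32 against 35 in MV4-11 and 22 against 26 in OCI-AML3. As a share of all stronger peaks of a library, the log2 difference was −0.08 ± 0.20 for MOLM13, 0.01 ± 0.20 for MV4-11 and −0.10 ± 0.20 for OCI-AML3, with a mean over the lines of −0.06 ± 0.11 (limma, adjusted p of the mean 0.996). Peaks under that value summed to 28 in treated against 29 in control MOLM13 libraries, 16 against 33 in MV4-11 and 11 against 18 in OCI-AML3. These sums were not scaled to the peak lists, which in OCI-AML3 held 77074 and 68670 peaks in treated against 70454 and 94529 in control libraries. The weaker peaks were not tested, and the share of all loci with such a difference was not counted.

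The MEF2B locus, with most of its regions in the flanks, had a lower rate in treated cells of 2 lines. Its stronger peaks were fewer there in count. MEF2B had 16 and 17 peaks in treated against 14 and 15 in control MOLM13, with 19 and 18 against 21 and 22 for MV4-11 and 6 and 7 against 10 and 11 for OCI-AML3. The rates per 10000 peaks were 1.67 and 1.65 against 1.76 and 1.63 in MOLM13, with 1.64 and 1.24 against 1.67 and 1.66 for MV4-11 and 0.778 and 1.02 against 1.42 and 1.16 for OCI-AML3. Treated and control rates overlapped in MOLM13 and did not overlap in the other two. Taken alone, 22.6% of all loci were below in MV4-11 and 13.4% in OCI-AML3, and the share below in both was not counted. The mean log2 difference over the lines was −0.25 ± 0.13 (limma, p = 0.0598, adjusted p = 0.787, exact permutation p = 0.0463). Stronger peaks of MEF2B numbered 14 and 13 in treated against 16 and 17 in control MV4-11, and 3 and 4 in treated against 8 and 8 in control OCI-AML3. In MOLM13 they summed to 20 in treated against 19 in control libraries. As a share of all stronger peaks, the log2 difference was −0.14 ± 0.22 for MOLM13 (limma, adjusted p = 0.920) and −0.14 ± 0.22 for MV4-11 (limma, adjusted p = 0.996). It was −0.95 ± 0.22 for OCI-AML3 (limma, adjusted p = 0.0636), and the mean over the 3 lines was −0.41 ± 0.13 (limma, adjusted p = 0.581). By this share, MV4-11 was thus no lower than MOLM13.

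**Figure D2:**
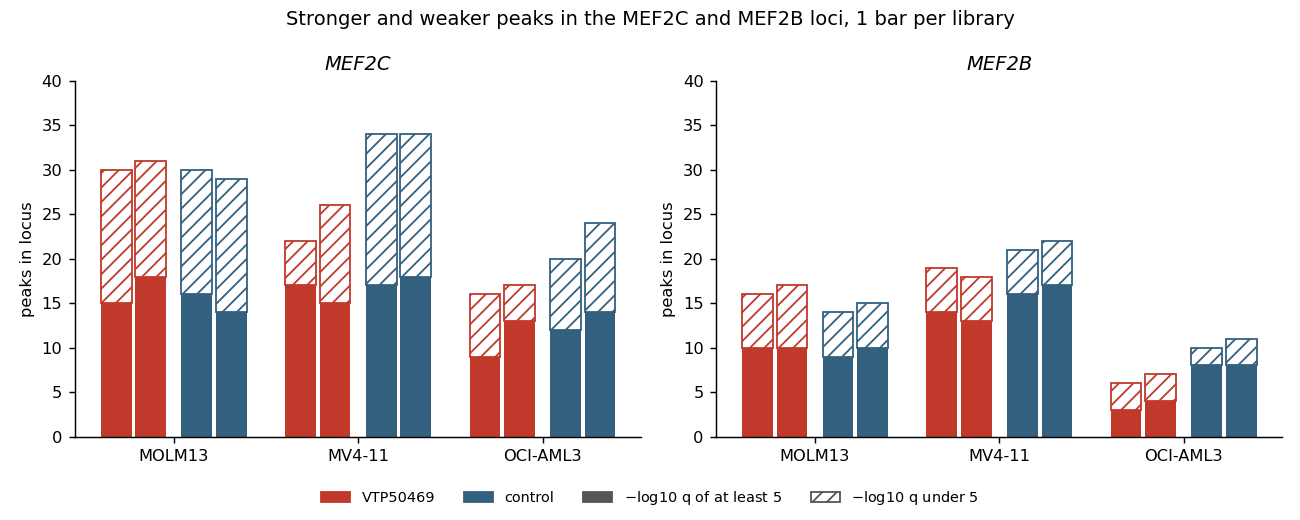
Number of peaks in the MEF2C and MEF2B loci, 1 bar per library, with treated libraries (red) left of controls (blue) in each line, the filled part for stronger peaks (−log10 q of 5 or more) and the hatched part for weaker ones. In MV4-11 the hatched part of MEF2C summed to 16 in treated and 33 in control libraries, and in OCI-AML3 the filled part of MEF2B summed to 7 in treated and 16 in control libraries.

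Treated and control rates of MEF2D and of MEF2A separated in 1 line each. MEF2D had 12 and 13 peaks in treated against 14 and 13 in control MOLM13, with 13 and 19 against 17 and 15 for MV4-11 and 8 and 9 against 10 and 10 for OCI-AML3. Its rates did not overlap in MOLM13 alone, where they were 1.26 and 1.26 per 10000 in treated against 1.76 and 1.41 in control libraries. Of all loci, 25.6% were below in MOLM13. The counts of MEF2D there met at 13, and the treated peak lists were larger (95561 and 103034 peaks, against 79373 and 92144 in controls). The mean log2 difference for MEF2D was −0.14 ± 0.13 (limma, adjusted p = 0.923). MEF2A had 11 and 12 peaks in treated against 10 and 9 in control MOLM13, with 14 and 19 against 12 and 14 for MV4-11 and 9 and 12 against 12 and 13 for OCI-AML3. Its rate was higher in both treated libraries than in both controls of MV4-11, at 1.21 and 1.31 against 0.957 and 1.06 per 10000, as at 12.2% of all loci. For MEF2A the mean log2 difference was 0.09 ± 0.14 (limma, adjusted p = 0.966). No difference of treatment effects between lines passed for any of the 4 genes (limma interaction terms, lowest adjusted p = 0.719).

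**Figure D3:**
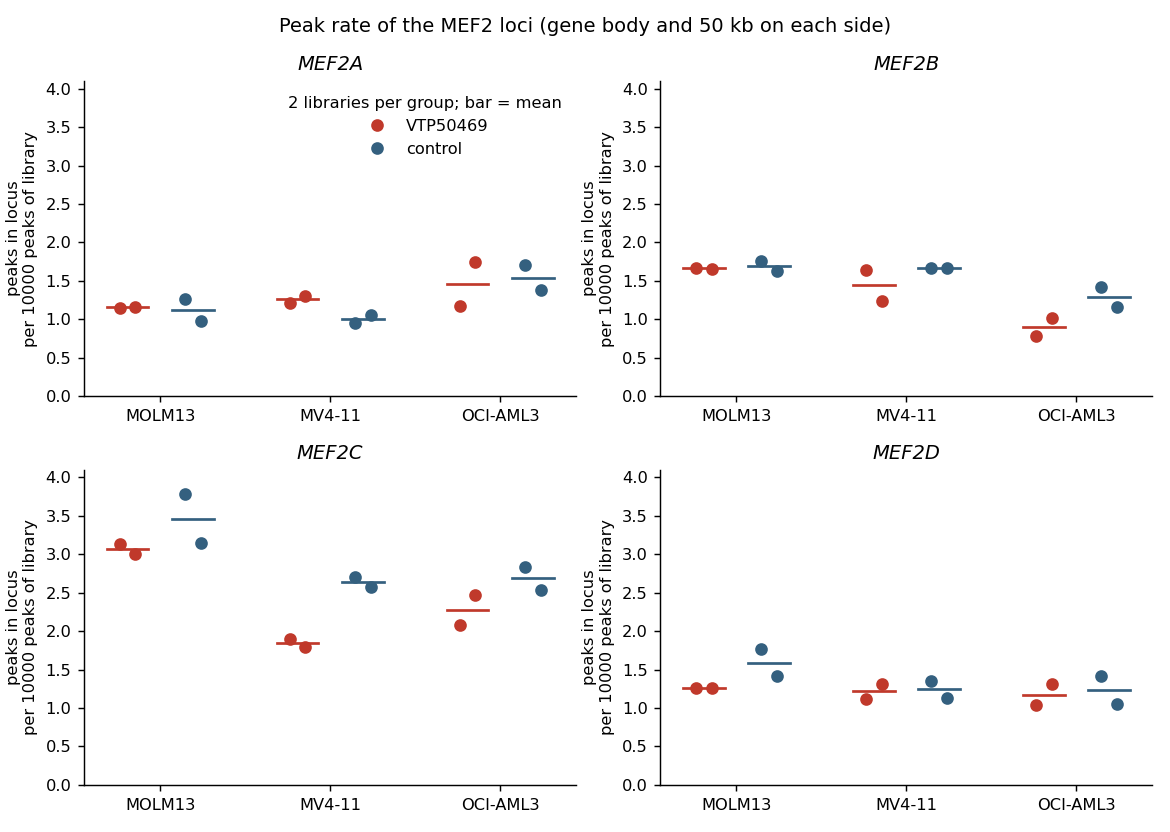
Peaks in each MEF2 locus per 10000 peaks of the library (y axis, from 0), with 1 point per library, treated libraries left of controls in each line and a bar for the mean of 2 libraries. MEF2C alone has both treated points below both control points in all 3 lines, and its highest rates are those of MOLM13.

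The second question was how the lines differed. The MEF2C locus had more peaks per 10000 in MOLM13 than in both other lines. The MEF2B locus, mostly flank, had fewer in OCI-AML3 than in both MLL1-rearranged lines. The MEF2C rate was 3.27 ± 0.346 per 10000 in MOLM13 (3.01 to 3.78), 2.24 ± 0.466 in MV4-11 (1.79 to 2.71) and 2.48 ± 0.314 in OCI-AML3 (2.08 to 2.84) (mean ± SD, n = 4 libraries each, treated and control). The ranges of MV4-11 and OCI-AML3 overlapped and both lay below that of MOLM13. The counts behind these rates were 29 to 31 peaks in MOLM13, 22 to 34 in MV4-11 and 16 to 24 in OCI-AML3, so that in counts MOLM13 lay within the range of MV4-11, and both MV4-11 controls (34 each) were above all MOLM13 libraries. The difference between MOLM13 and MV4-11 was thus one of rate, and the peak lists of MOLM13 were shorter. MOLM13 minus MV4-11 was 0.56 ± 0.12 on the log2 scale (limma, adjusted p = 0.00395), where 7.61% of all loci were called. MOLM13 minus OCI-AML3 was 0.39 ± 0.12 (limma, adjusted p = 0.0274), with 17.5% of all loci called. That second call was lost in the limma fit without MOLM13 VTP50469 replicate 1 (0.37, adjusted p = 0.0811) or 2 (0.40, 0.0580), without MOLM13 control replicate 1 (0.32, 0.121), without OCI-AML3 VTP50469 replicate 1 (0.32, 0.104) and without OCI-AML3 control replicate 2 (0.34, 0.0637). MV4-11 minus OCI-AML3 was −0.17 ± 0.12 for MEF2C (limma, adjusted p = 0.317) and did not pass. With the stronger peaks alone this changed: MOLM13 and OCI-AML3 then differed by 0.06 (limma, adjusted p = 0.784), and MV4-11 was lower than OCI-AML3 by a log2 difference of −0.66 (limma, adjusted p = 0.000401). The shares of called loci given here are those with all peaks. The share with stronger peaks alone is not given, so that call has no background.

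For the MEF2B locus the rate was 1.68 ± 0.0596 per 10000 for MOLM13, 1.55 ± 0.212 for MV4-11 and 1.095 ± 0.268 for OCI-AML3 (mean ± SD, n = 4 libraries each). Of its 38 regions, 26 lay in the flanks and 6 in the body. Another 4 lay within 1 kb of another gene's start and 2 within 1 kb of the MEF2B start. The rate is thus not one of the MEF2B gene alone. With a 5 kb flank or none there were too few peaks for a value. OCI-AML3 libraries had 6 to 11 MEF2B peaks, against 14 to 17 in MOLM13 and 18 to 22 in MV4-11, so their counts overlapped with neither. MOLM13 minus OCI-AML3 was 0.61 ± 0.16 (limma, adjusted p = 0.00587) and MV4-11 minus OCI-AML3 was 0.48 ± 0.16 (limma, adjusted p = 0.0231, with 24.8% of all loci called). The MV4-11 call was lost with stronger peaks alone (0.27, limma adjusted p = 0.146), with a pseudocount of 2 peaks (0.35, 0.0654), and in the fits without MV4-11 VTP50469 replicate 1 (0.38, 0.131), MV4-11 control replicate 1 (0.47, 0.0726) or 2 (0.48, 0.0723), OCI-AML3 VTP50469 replicate 1 (0.38, 0.0924) or OCI-AML3 control replicate 2 (0.40, 0.0700). MOLM13 and MV4-11 differed by 0.13 ± 0.16 for MEF2B (limma, adjusted p = 0.660).

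MEF2A and MEF2D passed in no comparison of lines with all peaks. The MEF2A rate was 1.14 ± 0.118 per 10000 for MOLM13, 1.13 ± 0.156 for MV4-11 and 1.498 ± 0.276 for OCI-AML3, and MV4-11 minus OCI-AML3 was −0.41 ± 0.17 (limma, adjusted p = 0.0687). That comparison of MEF2A passed with the stronger peaks alone (−0.69, limma adjusted p = 0.00126), with a pseudocount of 2 peaks (−0.44, 0.0237), and without OCI-AML3 VTP50469 replicate 1 (−0.55, 0.0227) or OCI-AML3 control replicate 2 (−0.49, 0.0442). MOLM13 minus OCI-AML3 for MEF2A was −0.38 ± 0.17 (limma, adjusted p = 0.114), and it passed without OCI-AML3 VTP50469 replicate 1 (−0.52, 0.0407). MOLM13 minus MV4-11 was 0.03 ± 0.17 for MEF2A, against 0.57 with the stronger peaks alone (limma, adjusted p = 0.0120). The MEF2D rate was 1.42 ± 0.238 for MOLM13, 1.23 ± 0.118 for MV4-11 and 1.21 ± 0.189 for OCI-AML3, with adjusted p between 0.393 and 0.987 over the 3 comparisons (limma). With the stronger peaks alone, MV4-11 minus OCI-AML3 was −0.48 for MEF2D (limma, adjusted p = 0.0245). The share of all loci called with stronger peaks alone is not given for these comparisons of MEF2A and MEF2D. For MOLM13 minus MV4-11, more loci were called with stronger peaks alone than with all peaks.

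The start site regions of MEF2 genes fell into those open in every library and those open in some lines. The region over the MEF2A starts, chr15:99564690-99566190, was called in all 12 libraries with folds of 8.69 and 8.84 in treated against 9.22 and 5.72 in control MOLM13, with 7.58 and 9.43 against 7.28 and 10.2 for MV4-11 and 7.25 and 8.38 against 6.76 and 8.79 for OCI-AML3. Treated and control folds overlapped in all 3 lines. Here and below, the share of all regions whose folds separate by treatment was not counted. A line with 2 libraries per group allows only 6 splits, with a smallest exact permutation p of 0.333. Separated folds of a single region are thus a description. MEF2D had a region at its body start, chr1:156500542-156501557, in all 12 libraries with folds between 5.59 and 9.97. Its other annotated start, at 156490687, had a region within 1 kb in 1 library only. Beyond that 1 kb, upstream of this start, chr1:156492317-156493363 was called in 11 libraries with folds between 5.35 and 7.74.

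MEF2C, which has 7 annotated starts, was open at 4 regions near them. The strongest, chr5:88826965-88827549, lies over the start at 88827192, 76.8 kb into the body, and had folds of 10.3 and 9.01 in treated against 7.95 and 7.14 in control MOLM13, with 15.7 and 10.5 against 11.99 and 11.9 for MV4-11 and 11.1 and 7.93 against 11.0 and 16.9 for OCI-AML3. Both treated libraries were higher in MOLM13, and the groups overlapped in MV4-11 and OCI-AML3. No region overlapped the window of the most upstream start, at 88904105. A region 20.5 kb into the body, chr5:88882864-88884387, lay within 1 kb of the starts at 88883184 and 88884536 and of a start of MEF2C-AS1. It had folds of 6.48 and 7.18 in treated against 6.18 and 8.23 in control MOLM13, with 8.04 and 7.51 against 10.0 and 9.12 for MV4-11 and 7.10 and 7.54 against 9.11 and 10.1 for OCI-AML3. Treated libraries were lower than both controls there in MV4-11 and OCI-AML3. For the test the folds were ranked within each library and turned into normal scores. The mean shift of this region over the lines was −0.44 ± 0.23 in normal scores (limma, adjusted p = 0.800), and that of the region at 88827192 was −0.09 ± 0.28 (limma, adjusted p = 0.975).

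The start of MEF2C at 88785511, whose window holds the 2 TGANTCA matches, lies between a pair of regions that behaved differently. The region past the start, chr5:88784852-88785305, was called in all 12 libraries with folds between 4.13 and 8.72. The one before it, chr5:88785878-88786317, was called in all 4 OCI-AML3 libraries, at 7.89 and 8.46 in treated and 6.98 and 8.17 in control cells. In the MLL1-rearranged lines it was called in 1 treated MOLM13 library (3.40) and 1 treated MV4-11 library (3.73) and in no control. Its 4 OCI-AML3 folds were thus above every fold in the other lines.

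At MEF2B the start site region, chr19:19170051-19170588, was called in 7 of 8 libraries of the MLL1-rearranged lines and in 0 of 4 of OCI-AML3. Its folds were 6.80 and 5.72 in treated MOLM13, 5.26 in 1 control MOLM13, and 5.23 and 5.94 in treated against 6.90 and 6.86 in control MV4-11. A weaker MEF2B region beside it, chr19:19170681-19170906, was called in the MV4-11 controls only (3.45 and 3.24). The MEF2B body also lies within the readthrough gene BORCS8-MEF2B, whose start, shared with BORCS8 and RFXANK at chr19:19191906-19193166, was open in all 12 libraries with a median fold of 13.3.

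**Figure D4:**
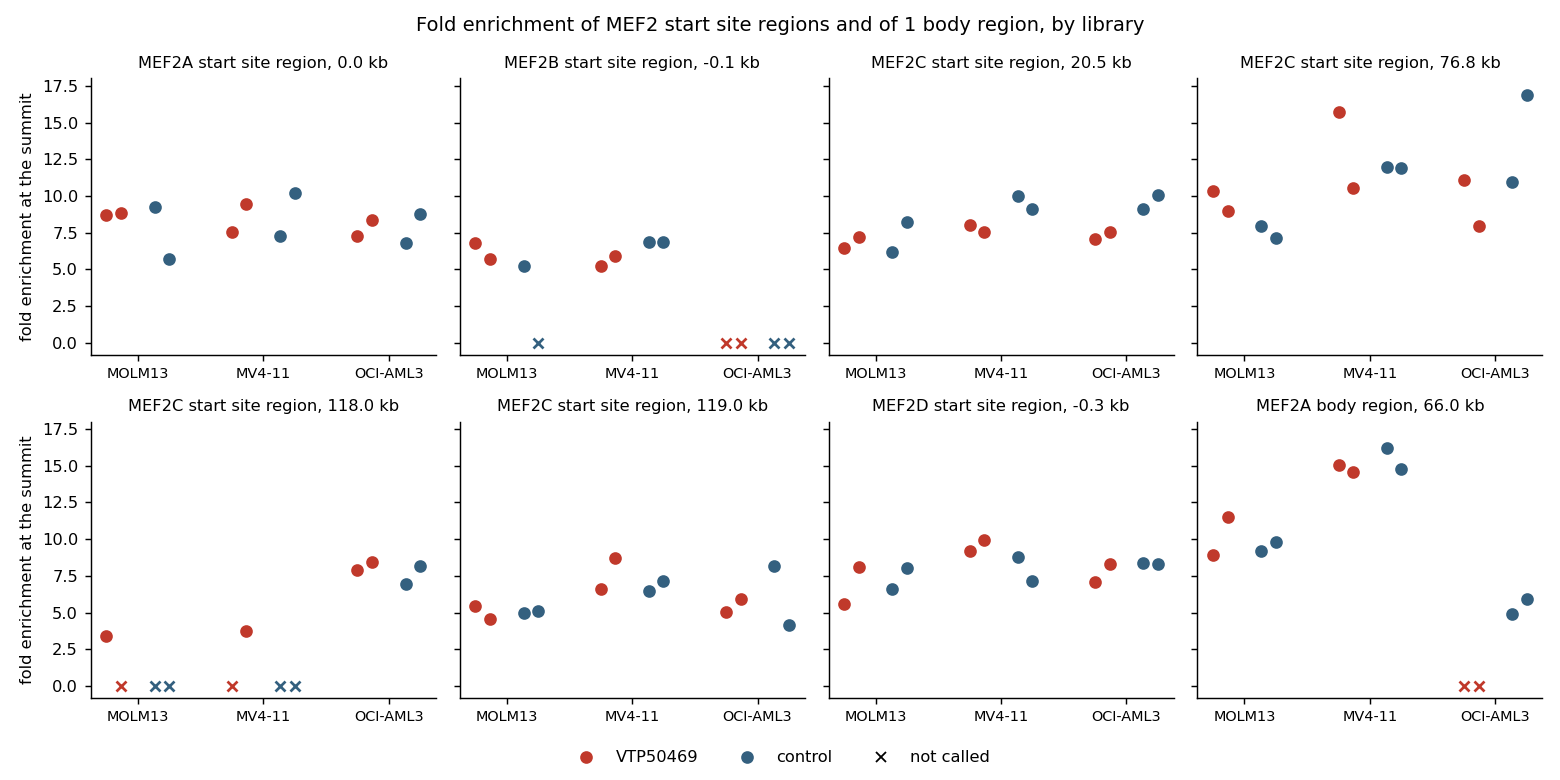
Fold enrichment at the summit (y axis) of the 7 MEF2 start site regions called in at least 4 libraries and of 1 region in the MEF2A body, 1 point per library, treated left of control in each line. Panel titles give the distance of the region from the start of the gene body, and a cross at 0 marks a library in which the region was not called. The MEF2B start region and the MEF2A body region have crosses in OCI-AML3, and the MEF2C region at 118.0 kb has its highest folds there.

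Strength of the regions did not pass any test of treatment in the 4 loci. Treatment was tested in 34 MEF2 regions called in all 4 libraries of MOLM13, 47 of MV4-11 and 25 of OCI-AML3, and 0 had an adjusted p under 0.05 (limma), as was the case for all regions of each line (0% of 41518, 70124 and 30982). At an unadjusted p under 0.05 there were 2 MEF2 regions for MOLM13, 5 for MV4-11 and 2 for OCI-AML3, where 5.49%, 6.56% and 5.8% of all regions were under it. Over all 12 libraries, 20 MEF2 regions were tested and 0 of 23338 regions in the series passed, with 1 MEF2 region lower and 1 higher at an unadjusted p under 0.05 (3.27% and 3.06% of all regions). The higher one was the strongest body region of MEF2C, chr5:88732038-88732859, with a mean shift of 0.69 ± 0.26 normal scores (limma, adjusted p = 0.734). Its folds were 11.3 and 12.8 in treated against 6.98 and 10.3 in control MOLM13, with 9.08 and 12.5 against 11.5 and 10.9 for MV4-11 and 13.8 and 14.4 against 6.87 and 12.5 for OCI-AML3. Both treated libraries were above both controls in MOLM13 and OCI-AML3 and overlapped with them in MV4-11. The share of all regions that separate in this way was not counted. The lower one, chr5:88690850-88691407, lies at a start of the long noncoding gene MIR9-2HG in the MEF2C flank, and had a mean shift of −0.59 ± 0.26 (limma, adjusted p = 0.783). Its folds were 6.04 and 9.20 in treated against 6.19 and 7.67 in control MOLM13, with 6.53 and 9.51 against 10.8 and 12.8 for MV4-11 and 5.41 and 6.53 against 7.10 and 9.77 for OCI-AML3. Treated libraries were below both controls in MV4-11 and OCI-AML3 and overlapped with them in MOLM13. Between lines, 0 of the 20 regions passed for MOLM13 minus MV4-11 and for MOLM13 minus OCI-AML3, where 4.42% and 8.79% of all regions did. For MV4-11 minus OCI-AML3, 1 passed, the start region of TMEM161A in the MEF2B flank, chr19:19138175-19138808, at 0.96 ± 0.29 normal scores (limma, adjusted p = 0.0366, with 13.7% of all regions called). Its folds were 15.002 to 18.9 in MV4-11 and 8.79 to 11.3 in OCI-AML3. The call was lost with any of the 4 MV4-11 libraries left out (limma adjusted p between 0.0547 and 0.124) and without OCI-AML3 VTP50469 replicate 1 (0.0880) or 2 (0.0649) or OCI-AML3 control replicate 2 (0.134).

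By median fold the strongest regions of the loci were not all at MEF2 start sites. At MEF2A they were the start region of LYSMD4 in the flank (chr15:99732772-99733875, folds between 8.14 and 14.3 in 12 libraries), the body region at 99631114 described with the lost regions, and chr15:99703682-99703937 in the body (7.80 to 13.6 in 11 libraries). At MEF2B the start regions of BORCS8 and TMEM161A came first, followed by a region found in MV4-11 alone. At MEF2D the strongest was a flank region downstream of the gene, chr1:156445678-156446121, with 6.90 and 11.2 in treated against 4.87 and 6.84 in control MOLM13, 9.27 and 9.35 in treated against 9.28 and 11.0 in control MV4-11, and 10.1 and 6.27 in treated against 9.28 and 14.9 in control OCI-AML3. Treated libraries of MOLM13 were above both controls there, and the MV4-11 and OCI-AML3 groups overlapped. At MEF2C a flank region, chr5:88680313-88680903, came after the body region and the start region, with folds between 6.11 and 10.5. A further MEF2B flank region, chr19:19127839-19128216, was lower in both treated MV4-11 libraries (6.60 and 10.7) than in both controls (13.4 and 14.6), was called in 1 treated MOLM13 library (5.84) and in 0 of OCI-AML3. Its shift in MV4-11 was −1.19 ± 0.39 normal scores (limma, adjusted p = 0.712).

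Regions that came or went with treatment were few. A region is called lost when both controls and neither treated library of a line had it, and gained in the reverse case. The 4 loci had 2 lost and 2 gained regions of 107 in MOLM13, 9 lost and 2 gained of 126 in MV4-11, and 4 lost and 1 gained of 72 in OCI-AML3. Over all regions of the lines 1.3%, 2.75% and 2.57% were lost and 3.22%, 1.92% and 1.32% were gained, so that the MEF2 share of lost regions was 1.87% for MOLM13, 7.14% for MV4-11 and 5.56% for OCI-AML3. These shares are descriptions with no test.

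MEF2C had 4 of the 9 regions lost in MV4-11 and 1 lost in MOLM13, and 0 of its 27 regions in OCI-AML3. In its body the lost places were chr5:88836514-88836728 (folds of 4.48 and 5.22 in the MV4-11 controls) and chr5:88895655-88895880 (3.94 and 5.03), and in MOLM13 chr5:88746157-88746269 (3.81 and 3.81). In its flank they were chr5:88674331-88674660 and chr5:88683652-88683863, both within 1 kb of a start of MIR9-2HG, the host gene of a miR-9 precursor, with 4.003 and 3.89 and with 5.72 and 4.43 in the MV4-11 controls. MEF2C gained 2 regions in MOLM13, chr5:88734412-88734517 (3.71 and 5.69 in treated cells) and chr5:88845436-88845596 (4.50 and 5.67). Both gained places were also called in all 4 MV4-11 libraries, treated and control. The lost places at 88674331 and 88895655 each lay in a wider region, merged over the 12 libraries, that 1 treated MV4-11 library still had.

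MEF2B lost 4 regions in MV4-11 and 2 in OCI-AML3 and gained 0. Its 4 in MV4-11 were the one beside its start and chr19:19160448-19160600 in the body, with chr19:19179635-19179846 and chr19:19184130-19184233 in the neighbouring BORCS8. In OCI-AML3 they were chr19:19146109-19146248, near the end of the MEF2B body (7.40 and 6.98 in controls), and chr19:19186020-19186211 (5.51 and 5.80). The place at the end of the MEF2B body was called in all 8 libraries of the other lines, at 5.74 and 6.54 in treated against 4.41 and 5.81 in control MOLM13 and at 8.91 and 5.79 against 11.1 and 10.4 in MV4-11. Only treated OCI-AML3 cells had no call there.

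MEF2A lost a body region in OCI-AML3 in the same way. At chr15:99631114-99631748, 66.0 kb past the start, folds were 8.94 and 11.5 in treated against 9.19 and 9.79 in control MOLM13, and 15.02 and 14.6 in treated against 16.2 and 14.7 in control MV4-11. In OCI-AML3 it was called in neither treated library and in both controls, at 4.90 and 5.94, on 7 and 8 summit reads. The control folds of OCI-AML3 were thus below all 8 folds of the MLL1-rearranged lines, on few reads. A second OCI-AML3 loss in the MEF2A flank, chr15:99763936-99764094, had a gained region next to it at chr15:99763763-99763868, with the gap between them shorter than either interval. In MV4-11, MEF2A gained chr15:99720592-99720741, in the neighbouring LYSMD4. MEF2D lost chr1:156525109-156525232 in MOLM13 and chr1:156461861-156462161 in MV4-11 and gained chr1:156492344-156492493 in MV4-11, with folds between 3.05 and 4.63. The gained MEF2D place lay in a wider region, chr1:156492317-156493363, that all 4 MV4-11 libraries had.

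Regions restricted to lines were also few. Called in all 4 MOLM13 libraries and in none of the other 8 were chr5:88841212-88841490 in the MEF2C body (4.38 and 6.85 in treated, 4.29 and 4.20 in control cells) and chr1:156511743-156512039 upstream of MEF2D (5.52 and 4.29 in treated, 6.05 and 5.89 in control cells), 2 of 177, where 0.124% of all regions had this pattern. Restricted to MV4-11 were 3 of 177, against 2.01% of all regions. The strongest of these was chr19:19181523-19182091, 11.5 kb upstream of the MEF2B start, at 9.96 and 9.62 in treated and 12.1 and 11.6 in control cells. The other two lay at MEF2D, chr1:156480821-156481118 in its body and chr1:156420806-156421237 in its flank. Restricted to OCI-AML3 were 0, against 0.245% of all regions, and shared by MOLM13 and OCI-AML3 without MV4-11 were also 0, against 0.026%.

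Of the 77 MEF2C regions, 2 in the body were called in all 8 libraries of the MLL1-rearranged lines and in none of OCI-AML3. MEF2A, MEF2B and MEF2D had 0 such regions. The 2 of 177 regions of the 4 loci were thus near the 0.969% of all regions with this pattern. At chr5:88829136-88829446, folds were 6.57 and 6.85 in treated against 7.56 and 7.63 in control MOLM13 and 5.17 and 7.87 against 6.09 and 5.18 in MV4-11. At chr5:88872988-88873690 they were 5.26 and 5.12 in treated against 4.51 and 6.62 in control MOLM13 and 6.57 and 7.61 against 6.70 and 8.28 in MV4-11. Treatment groups overlapped in both, apart from lower treated folds at the first in MOLM13. Of the 35 MEF2C regions called in at least 2 libraries, 12 (34.3%) were called in both MLL1-rearranged lines and never in OCI-AML3, against 23.4% of all 149822 such regions. Only 1 (2.86%) was called in OCI-AML3 alone, against 3.51%. Over the 4 loci these patterns held for 23 (25.3%) and 3 (3.30%) of 91 regions, so the lean away from OCI-AML3, which has 4 of the 12 libraries, was shared with the rest of the series. A MEF2C flank region at the start of MEF2C-AS2, chr5:88675557-88676082, had the other pattern, in all 8 libraries of MV4-11 and OCI-AML3 (4.53 to 9.04) and none of MOLM13, as did 0.191% of all regions.

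MEF2C and MEF2D share a feature that the choice of genes did not use, which is a miR-9 gene in or beside the flank. MIR9-2 lies at chr5:88666853-88666939, just outside the MEF2C locus, and its host gene MIR9-2HG reaches into that flank. MIR9-1 lies at chr1:156420341-156420429 in the MEF2D flank, 376 bp from the MV4-11 region at chr1:156420806-156421237, which was called at 4.02 and 4.83 in treated and 6.09 and 5.82 in control cells. A nearer region, chr1:156420006-156420120 at 220 bp, was called in 1 MOLM13 and 1 OCI-AML3 library. Another at a start of the host gene MIR9-1HG, chr1:156421635-156421925, was called in 10 libraries, with calls in all 3 lines. MIR9-1 and MIR9-2 give the same mature miRNAs, shown with the seed (bases 2 to 8) in capitals (RefSeq, GRCh38.p14).
hsa-miR-9-5p: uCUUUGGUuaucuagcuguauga
hsa-miR-9-3p: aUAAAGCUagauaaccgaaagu
The 5p and 3p arms have different seeds, and the hairpin of MIR9-1 itself overlapped no region.

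The MEF2 pathway was read at 35 other genes, of which 33 had a mean of at least 5 peaks. None passed the mean treatment test (limma), and their median log2 difference was −0.05, against −0.04 over all loci. The smallest p-values among the lower ones were those of the coactivators CREBBP (−0.37 ± 0.14, limma adjusted p = 0.628) and EP300 (−0.32 ± 0.16, limma adjusted p = 0.762). Among the higher ones they were those of MAP2K5, the kinase above ERK5 (0.29 ± 0.13, limma adjusted p = 0.705), and KLF2, a target of MEF2 in endothelium (0.23 ± 0.14, limma adjusted p = 0.823).

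Between lines the pathway genes differed more. CAMK4, a calcium-dependent kinase upstream of the class IIa HDACs, was higher in MOLM13 than in MV4-11 by 1.09 ± 0.16 on the log2 scale (limma, adjusted p = 2.39e-05), 1 of 33 called higher and 0 lower, where 4.39% and 3.23% of all loci were. For MOLM13 minus OCI-AML3, 8 of 33 passed as higher and 1 as lower, against 10.2% and 7.31% of all loci. The 8 were HDAC9, a class IIa HDAC that binds MEF2 (0.49 ± 0.11), MAPK14, the p38 kinase that phosphorylates MEF2 proteins (1.34 ± 0.20), the kinases MARK2, CAMK4 and PRKD2, the calcineurin subunit PPP3CA, the calcineurin inhibitor RCAN1 and the coactivator CARM1. The lower one was the kinase STK11 (−0.41 ± 0.14, limma adjusted p = 0.0437). For MV4-11 minus OCI-AML3, 9 passed as higher (HDAC4, HDAC9, MARK2, PRKD2, PRKD3, MAPK14, PPP3R1, RCAN1 and CARM1) and 2 as lower (CAMK2D and CAMK4), against 11.6% and 13.2% of all loci. HDAC9, MARK2, PRKD2, MAPK14, RCAN1 and CARM1, 6 of 33 (18.2%), were called higher than OCI-AML3 in each MLL1-rearranged line, where 6.09% of all loci were. The MEF2B locus, with most of its regions in the flanks, was called so too. Both comparisons use the same OCI-AML3 libraries, and the share is a description with no test.

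The genes whose log2 peak rate over the 12 libraries was most like that of a member are given as a description, since the points share library, depth and line. They were RACK1, TRIM7 and CIST1 for MEF2C (Pearson's r of 0.893, 0.881 and 0.878 over 12 libraries), TBC1D2B, PAK5 and CLDN16 for MEF2B (0.950, 0.929 and 0.916), LLGL2, ARHGEF4 and WBP1 for MEF2A (0.935, 0.894 and 0.891), and TEX44, RHOQ and MPV17L2 for MEF2D (0.918, 0.881 and 0.879). RACK1 and TRIM7 both lie on chromosome 5, as MEF2C does, and whether their loci share peaks was not checked. The search took in 7342 to 7387 genes with a mean of at least 10 peaks.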

How the data were processed

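Per the labels, the authors used bcl2fastq 2.17, Trimmomatic 0.33, Bowtie 1.1.2 and MACS2 2.1.0, with deepTools for tracks, on hg38, and the study's methods name another aligner. They had called peaks library by library at a q of 0.05, and no value was scaled between libraries. For each peak the deposited ratio is the fold at the summit over local background. The deposited score is 10 times the −log10 q, and the deposited −log10 p-value and q-value refer to the summit. The deposited offset, in bp, places that summit.

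The 956 peaks on chromosome Y were left out. Summit reads were worked out from fold and p together, as the integer that gave both within a tolerance of 0.001 (99.99% of peaks or more in each library). Library sequencing totals are unknown, so no counting interval is given. Regions joined peaks sharing at least 1 bp. Loci were RefSeq gene bodies (GRCh38.p14, matched by symbol) with 50 kb flanks, and gene names and start sites came from the same annotation.

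Rates, log2 of peaks plus 0.5 per 10000, were fitted with the 6 groups over all 12 libraries by limma 3.58.1 (R 4.3.3) in the 15249 of 19974 protein-coding loci with a mean of at least 5 peaks. Fold ranks, as normal scores, were fitted for regions called in every library of the fit. P-values were adjusted by Benjamini-Hochberg over all loci or regions, at 0.05. The windowed read test of the study needs reads and was not run. Deviations of equally numbered libraries correlated at −0.011 to 0.036, so numbers were not used as pairs. The alternatives were other flanks, stronger peaks, pseudocount, filter, overlap, measure, replicate block, exact permutation and leaving out 1 library. The regions named were those at start sites, lost, gained or restricted to lines and the 3 strongest of a locus, and any other was named after its values were seen. The members, the pathway list and these rules were chosen with earlier results of these data known. The code was tested on simulated data (Python 3.11.15).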

Additional observations from a re-analysis of the deposited data

Results flagged for a closer look

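Groups of 2 libraries are too small for a test of single samples, so the regions listed here are those of the 20 called in all 12 libraries in which the treated pair was above the control pair in one line and below it in another. There were 2 such regions of the 20. How many of all regions called in all 12 libraries do the same was not counted, so this number has no background. In the MEF2C body, chr5:88888959-88890154 had folds of 7.48 and 7.96 in treated against 4.74 and 5.50 in control MV4-11, and of 4.67 and 6.49 in treated against 6.71 and 8.79 in control OCI-AML3. The difference of the treatment shifts, MV4-11 minus OCI-AML3, was 1.87 ± 0.69 normal scores (limma interaction term, adjusted p = 0.793) and did not pass. In the MEF2D flank, chr1:156456424-156457798 had folds of 6.38 and 7.01 in treated against 7.61 and 7.52 in control MOLM13, of 9.16 and 8.97 in treated against 7.51 and 8.58 in control MV4-11, and of 8.17 and 8.56 in treated against 6.59 and 8.09 in control OCI-AML3. The difference was −0.83 ± 0.54 for MOLM13 minus MV4-11 (limma, adjusted p = 0.999) and −1.06 ± 0.54 for MOLM13 minus OCI-AML3 (limma, adjusted p = 0.759), and neither passed.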

How the results depend on the processing

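Peaks per library limited these results: a locus had 6 to 34 peaks in a library, and 1 or 2 weak peaks moved its rate. Changes below are log2 differences, counts are calls at an adjusted p under 0.05 (limma), and the cause of each change was not tested. Of the values for single members, 331 kept direction and side of the threshold, 30 changed sign, 7 came to pass and 25 no longer passed.

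The MEF2C mean treatment difference stayed below 0 in each alternative, at −0.33 with a 5 kb or no flank, −0.06 with stronger peaks alone and −0.35 to −0.26 with 1 library left out. With stronger peaks alone, MEF2D turned to 0.031 for the mean, −0.18 for MOLM13 minus OCI-AML3 and −0.48 for MV4-11 minus OCI-AML3 (adjusted p = 0.0245 in limma), and its start region to −0.0056 normal scores. With a pseudocount of 2, MEF2D turned to −0.075 for MV4-11 minus OCI-AML3. MEF2C turned to 0.12 (5 kb) and 0.10 (no flank) for MV4-11 minus OCI-AML3, and MEF2A to 0.072 (no flank) for MOLM13 minus OCI-AML3. Without 1 library in turn, MEF2A ranged over −0.0032 to 0.18 for the mean and −0.061 to 0.12 for MOLM13 minus MV4-11, and MEF2D over −0.10 to 0.11 for MV4-11 minus OCI-AML3. The start regions ranged over −0.093 to 0.40 (MEF2A), −0.33 to 0.46 (MEF2C, 88784852), −0.29 to 0.11 (MEF2C, 88826965) and −0.089 to 0.13 (MEF2D). With no flank MEF2B and MEF2D, and with 5 kb MEF2B, had too few peaks for a value.

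Loci called for treatment in MOLM13 (0) became 2 with stronger peaks. In OCI-AML3 (6) they became 1 with 5 kb, 18 with stronger peaks, and 0 with no flank, no filter or exact permutation. Within 1 line the smallest exact permutation p is 0.333, so no locus could be called by it there. For the mean (1) they became 0 with 5 kb, stronger peaks, no filter or exact permutation. For MOLM13 minus MV4-11 (1161) they became 483 (5 kb), 373 (no flank), 3175 (stronger peaks), 1769 (pseudocount 2) and 0 (exact permutation, which cannot pass the adjustment). MOLM13 minus OCI-AML3 (2668) gave 885, 733 and 0 with 5 kb, no flank and exact permutation, and MV4-11 minus OCI-AML3 (3782) gave 1193, 919 and 0. Leaving out 1 library gave 0 to 13, 0 to 68 and 0 to 4 loci for treatment in MOLM13, OCI-AML3 and the mean, 497 to 1444 for MOLM13 minus MV4-11 and 2488 to 3936 for MV4-11 minus OCI-AML3. Regions called by strength became 1966 with −log10 q, 3163 with unranked fold and 419 with stronger peaks for MOLM13 minus MV4-11 (1032), 4065 with −log10 q and 1069 with stronger peaks for MOLM13 minus OCI-AML3 (2051), and 7883 with unranked fold and 1556 with stronger peaks for MV4-11 minus OCI-AML3 (3197). Leaving out 1 library gave 0 to 14, 0 to 125 and 7 to 22 regions for treatment in MOLM13, MV4-11 and OCI-AML3, and 467 to 1085, 1274 to 1886 and 1548 to 3171 for the 3 line comparisons in the same order.

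Replicate numbers did not pair the libraries. With the number as a block, loci called for treatment became 3 in MOLM13 and 0 for the mean, and regions became 4 in MOLM13 and 20 in OCI-AML3. The MV4-11 minus OCI-AML3 call of the TMEM161A start region (0.96) then had an adjusted p of 0.0519 in limma, and no other call for a member changed.

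With stronger peaks alone, lost regions of the MEF2 loci became 0 in MOLM13 and 3 in MV4-11, gained ones 1 for MOLM13, 0 for MV4-11 and 0 for OCI-AML3, and line-restricted ones 0 for MOLM13, 1 for MV4-11 and 1 for OCI-AML3. With a 5 kb flank, lost regions became 1 for MOLM13, 5 for MV4-11 and 2 for OCI-AML3, gained ones 0 in OCI-AML3, and line-restricted ones 1 in MOLM13 and 1 in MV4-11. With regions merged over all 12 libraries, chosen after seeing the data, gained regions became 1 in MV4-11 and lost ones 7.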
